A study of Mus musculus with 17 samples.

Results

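The genes described here are 10 targets of the hypoxia-inducible factors (HIFs), out of 18836 genes listed in at least 1 library: Ndufa4l2, Bnip3, Car9, Vegfa, Egln1, Egln3, Ddit4, Ankrd37, Adm and Pdk1. They were taken by symbol, and each symbol had 1 row in the tables. They are targets outside the core of glycolysis, and they were selected on their day 7 FPKM, which was higher with bFGF than without it. Those day 7 values are therefore given as a description with no test, and the tests rest on days 1, 3 and 5, and for CHIR99021 on days 1 to 7. Leaving out day 7 does not remove the choice, since the days belong to the same time course. Higher levels with bFGF on days 3 and 5, and rises with bFGF up to them, are partly built in. The shares of all genes given beside the counts come from genes not chosen in this way.

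The libraries came from mouse neural retinal progenitor cells (mNRPCs), cultured from the retina of adult C57BL/6 mice and expanded with bFGF and CHIR99021. Cells were grown in a basic medium (BM, a serum-free DMEM/F12 with N2, B27 and beta-mercaptoethanol), in B (BM with bFGF), in C (BM with CHIR99021) or in BC (BM with both), and RNA was taken on days 1, 3, 5 and 7. With a day 0 control this makes 17 libraries, 1 for each treatment and day, and no condition was repeated. bFGF, basic fibroblast growth factor, signals through FGF receptors. CHIR99021 blocks glycogen synthase kinase-3, which in general raises beta-catenin. In these cells, though, the paper reports by western blot that the canonical Wnt pathway was active in B only. The question put to the data was when, and in which of these media, each HIF target moved.

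HIFs are transcription factors made of an oxygen-regulated alpha subunit (HIF-1 alpha from Hif1a, HIF-2 alpha from Epas1) and a stable beta subunit (ARNT). In oxygen, prolyl hydroxylases of the EGLN family mark the alpha subunit, the von Hippel-Lindau protein (VHL) binds it and it is degraded, so its activity is set mostly at the protein. When the alpha subunit is kept, the dimer binds the core A/GCGTG of hypoxia response elements and raises genes for pH control, mitochondria, vessel growth and its own hydroxylases. In the retina, VEGFA is the best known of these products, since it drives vessel growth in ischaemic eye disease. No oxygen level was recorded for these cultures in the sources used here.

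The promoters of 9 of the 10 genes were in the RefSeq table of promoters (build GRCm38.p6), which holds for each start the 250 bases before it and 50 bases after it. Ndufa4l2 had no entry. The table was searched for ACGTG and GCGTG on both strands, with matches that overlap each counted. The 9 genes had 11 promoters, and 9 of these promoters had a match, at least 1 for each gene. For Vegfa, the promoter of the upstream start (chr17:46032328-46032627) had no match. Its 2 matches lay at a start further downstream (chr17:46025114-46025413). For Pdk1, the promoter of the upstream start had 2 matches and that of the downstream start had none. Over all 32851 promoters of the same length, 43.8% had a match and 20.6% had 2 or more. A match is a description of the letters and was not tested as a site. The stretches below have the matches in capitals: Bnip3 and Ankrd37 stand for the 2 promoters with the most matches among the 10 genes (5 and 4 in the whole window), and Car9 is shown because its difference with bFGF was among the largest.

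Bnip3, chr7:138909520-138909756, minus strand: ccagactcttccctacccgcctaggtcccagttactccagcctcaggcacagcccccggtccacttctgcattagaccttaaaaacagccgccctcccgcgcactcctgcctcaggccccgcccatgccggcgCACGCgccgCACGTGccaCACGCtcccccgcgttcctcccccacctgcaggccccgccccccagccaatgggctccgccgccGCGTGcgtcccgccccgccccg
Ankrd37, chr8:45999868-46000100, minus strand: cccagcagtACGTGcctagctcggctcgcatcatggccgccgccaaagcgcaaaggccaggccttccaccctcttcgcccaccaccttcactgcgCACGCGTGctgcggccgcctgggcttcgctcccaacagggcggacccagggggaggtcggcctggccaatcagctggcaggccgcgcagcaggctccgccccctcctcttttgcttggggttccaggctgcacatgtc
Car9, chr4:43506996-43507025, plus strand: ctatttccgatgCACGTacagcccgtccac

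The Bnip3 and Ankrd37 stretches run from 250 bases before the RefSeq start to the base before the first start that RefSeq or GENCODE annotates. The Bnip3 stretch holds all 5 matches of its window, 2 of which lie in the palindrome CACGTG, a sequence found in 7.2% of all promoters. The Ankrd37 stretch holds 3 of its 4 matches. The Car9 stretch is the 30 bases before its RefSeq start, and its only match lies 18 bases before that start, on the antisense strand, within a transcript that GENCODE starts further upstream.

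The depth was even, with total expected counts of 17571973 to 19428744 per library. The progenitor markers Pax6, Six3, Sox2 and Nes were present in every library, while Rax and Six6 were at an FPKM of at most 0.07. All 7 photoreceptor markers stayed below an FPKM of 1. Of the 9 progenitor markers listed, 5 were tested, and 1 was lower with bFGF on day 1, 4 on day 3 and 3 on day 5. Over all genes 3.44%, 24.8% and 38.3% were lower, or 56.6% on day 5 when counts were scaled by library size only, so nothing is read from the day 5 count. Pax6 was at -1.68 ± 0.30 on day 3 and -2.19 ± 0.30 on day 5 (log2, edgeR adjusted p = 0.00144 and 0.000109). The summed FPKM of the 9 markers was 149 to 404 in the 8 libraries without bFGF and 96.1 to 207 in the 8 with it. Markers of some other cells differed with bFGF as well in these bulk libraries. The summed FPKM of 6 fibroblast markers was 144 to 409 in the 8 libraries without bFGF and 62.9 to 155 in the 8 with it. That of 8 pericyte markers was 13.8 to 119 and 6.44 to 37.7, most of it Pdgfrb, and that of 7 Muller glia markers was 27.6 to 227 and 27.0 to 128. Of those 7, 2 were tested, with 1 lower with bFGF on day 1 and 1 higher on days 3 and 5, too few to read. These ranges pool days 1 to 7 and overlap, so they mix day with treatment. Fewer cells of a type and less RNA per cell cannot be told apart here, and the part of these markers in the results below was not tested. FPKM is a fragment count scaled by transcript length and by the reads of the library, so levels can be compared between genes.

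**Figure D1:**
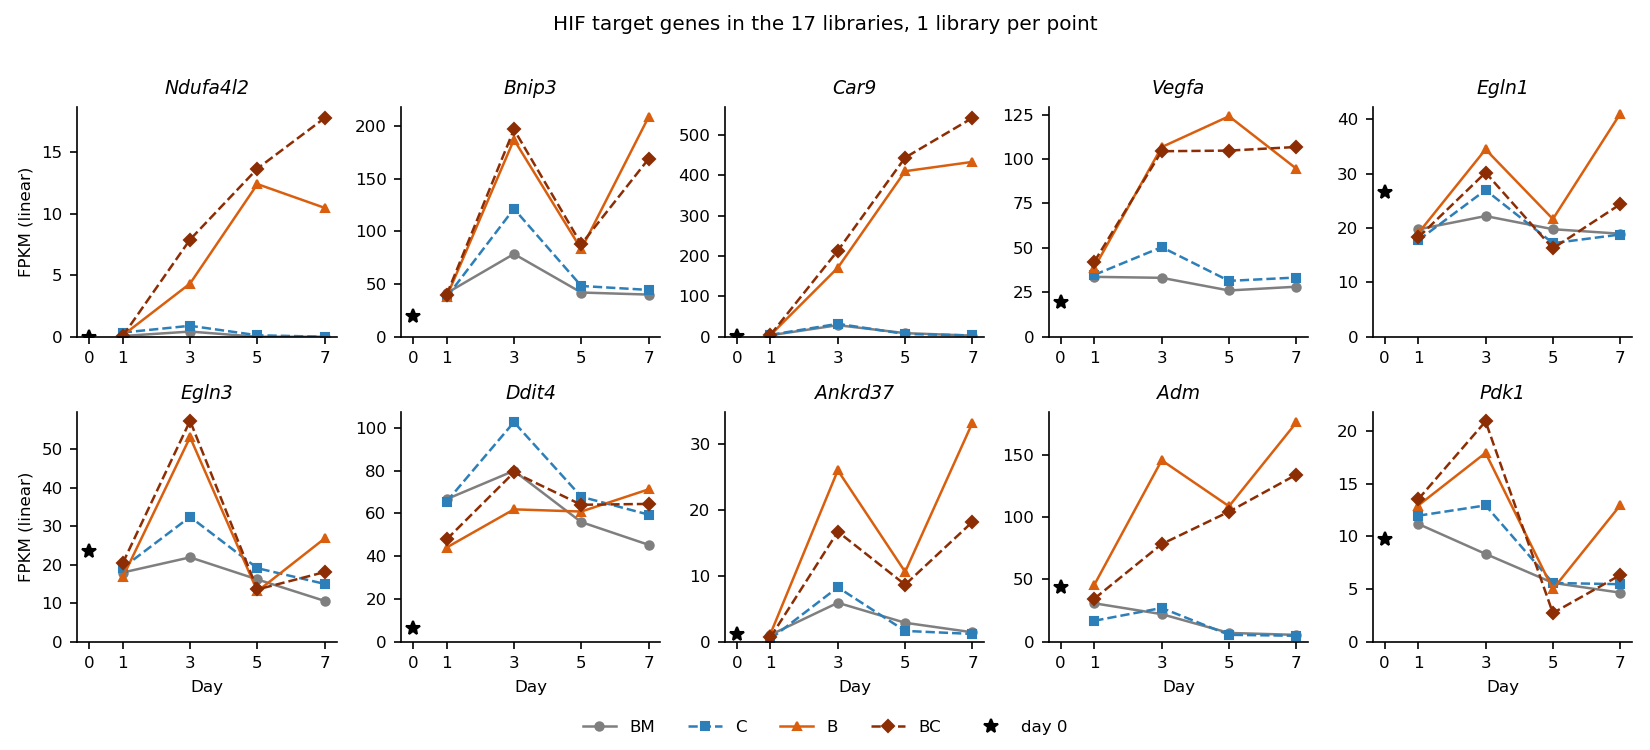
FPKM of each of the 10 genes (vertical axis, linear, from 0) against the day of culture, with 1 point per library, lines joining the days of BM, C, B and BC, and a star for the day 0 control. The B and BC points lie above the BM and C points on days 3, 5 and 7 for Car9, Ndufa4l2, Adm, Vegfa, Bnip3 and Ankrd37. Bnip3, Ankrd37, Egln1, Egln3 and Pdk1 are lower on day 5 than on day 3 in B and BC.

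Ndufa4l2 encodes a mitochondrial protein related to the complex subunit NDUFA4, and it is known as a HIF-1 target that lowers oxygen use. Its FPKM was 0 on day 0 and at most 0.89 in the 8 libraries without bFGF. On day 1 it was 0.06 (BM), 0.34 (C), 0.11 (B) and 0.06 (BC). On day 3 it was 0.42 (BM), 0.89 (C), 4.32 (B) and 7.89 (BC). The groups with and without bFGF overlapped on day 1 and were apart on day 3.

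On day 5 the FPKM of Ndufa4l2 was 0 (BM), 0.12 (C), 12.4 (B) and 13.7 (BC). On day 7 it was listed in neither BM nor C, and it was 10.5 (B) and 17.8 (BC). Its level with bFGF on day 7 was thus modest beside Car9, and its very large relative difference rests on an absence of reads without bFGF. In reads summed over the pair of libraries, bFGF against no bFGF was 3 against 7 on day 1, 214 against 22 on day 3, 443 against 2 on day 5 and 493 against 0 on day 7.

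Scaled by the library totals, the read ratio of Ndufa4l2 was 9.55 on day 3, with an exact 95% interval of 6.15 to 15.6 that covers counting error only. On day 5 it was 230 with an interval of 63.3 to 1904. For day 7, whose values chose the genes, no ratio or bound is given beside the 493 against 0 reads. Ndufa4l2 passed the filter on low values only through its libraries with bFGF, so its place among the genes tested already reflects that difference. Fitted fold changes of this gene depend on the prior count where so few reads are present and are not bounds. NDUFA4 itself behaved otherwise: Ndufa4 was at 121 and 140 FPKM in BM and C on day 5 and at 80.8 and 68.7 in B and BC, and was lower with bFGF (log2 fold change -0.35 ± 0.12 SE, edgeR adjusted p = 0.0196).

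Among 11257 other genes past the filter on mean FPKM, the 5 whose log2(FPKM + 1) followed Ndufa4l2 most closely over the 17 libraries were Mfge8 (Pearson r = 0.984), Blvrb (0.982), Dap (0.977), Gpi1 (0.977) and P4ha1 (0.974). These points share the culture days, so r describes a pattern and carries no p. For the other 9 genes, likeness to Ndufa4l2 is partly built in, since all were chosen for a higher day 7 level with bFGF. Mfge8, a secreted glycoprotein that marks dying cells for uptake, was at 162 to 208 FPKM without bFGF and at 215 to 703 with it. Car9 ranked sixth by this measure (r = 0.973) and Vegfa 31st (0.944). Pdk1 was at the other end of the 10 genes, with r = -0.071. Pericytes also express Ndufa4l2, and of their markers Rgs5, Kcnj8, Abcc9, Higd1b, Cspg4 and Anpep were at an FPKM of at most 0.33 in every library, and Pdgfrb was lower with bFGF on days 5 and 7 (5.25 to 13.2 FPKM) than without it (93.4 to 115). The remaining pericyte marker, Notch3, went the other way on day 3, at 2.16 (BM), 1.07 (C), 3.43 (B) and 5.46 (BC), and was higher with bFGF then (1.69 ± 0.49, edgeR adjusted p = 0.0178) and not past the threshold on day 5 (0.50, adjusted p = 0.373). The part of pericytes in the Ndufa4l2 values was not tested.

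Tests were made with edgeR's quasi-likelihood method on the rounded expected counts of the 12 libraries of days 1, 3 and 5, with Benjamini-Hochberg adjustment over 11254 genes. The spread comes from departures from an additive CHIR99021 effect and not from repeated cultures, so the p-values do not measure the variation between cultures. On day 1, 1 of the 10 genes passed (Ddit4, lower), beside 8.65% of all genes in either direction. On day 3, 9 of the 10 were higher with bFGF, beside 25.4% of all genes, and on day 5, 8 of the 10 were higher, beside 37.1%. Ndufa4l2 is among them and had to differ to pass the filter, and of the other 9 genes, 8 were higher on day 3 and 7 on day 5. The median log2 fold change of the 10 was 0.14 on day 1, 1.30 on day 3 and 1.93 on day 5, and that of all genes was 0.04, -0.01 and -0.02. The 10 were chosen for a higher day 7 level with bFGF, and the genes beside them were not. These counts and medians are therefore partly built in and are given as a description.

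The day 5 share depends on the scaling. Of the genes past the threshold on day 5, 4176 were higher and 4308 lower with TMM scaling, and 2397 were higher and 6365 lower when counts were scaled by library size only, which moved the median of all genes to -0.46. Under that scaling 6 of the 10 genes were higher on day 5 and 2 lower. On day 3 the split was 2858 higher and 2788 lower with TMM and 2395 and 3582 with library size only. On day 1 it was 587 and 387 against 312 and 536.

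**Figure D2:**
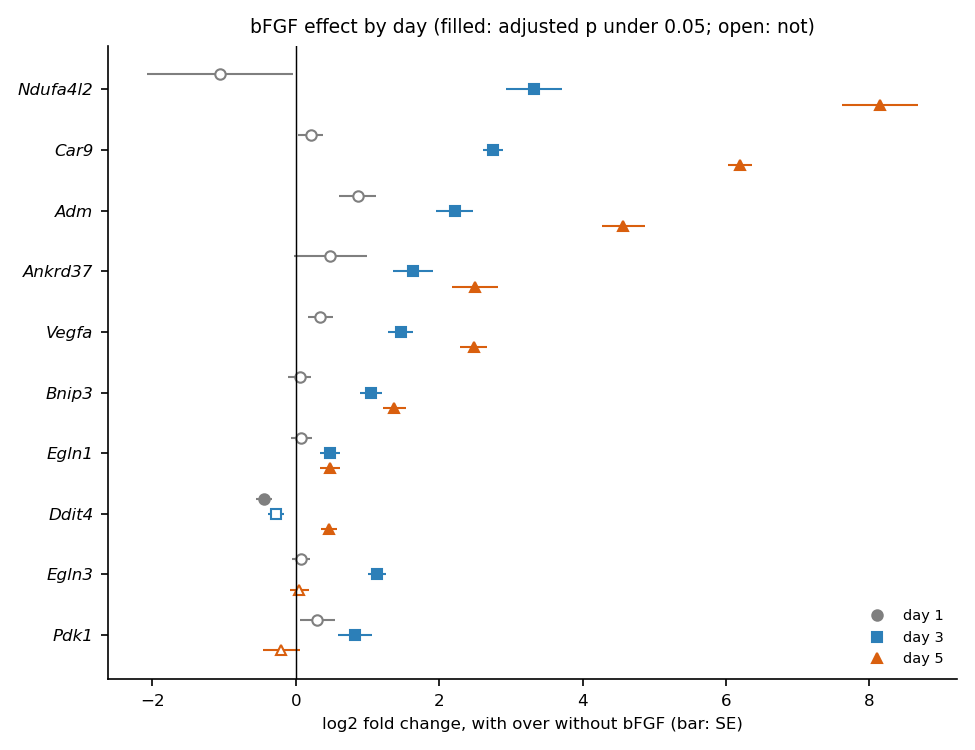
Fitted log2 fold change of each gene with over without bFGF on days 1, 3 and 5 (horizontal axis, bars are standard errors), ordered by the day 5 value, with filled symbols for an adjusted p under 0.05 and open symbols otherwise. Ndufa4l2, Car9 and Adm move furthest to the right between day 3 and day 5, while Egln3 and Pdk1 return to near 0 on day 5.

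Car9 encodes carbonic anhydrase IX, a membrane enzyme that helps cells export acid and is among the most HIF-dependent genes known. Its FPKM was 2.46 on day 0 and 3.70, 4.70, 4.24 and 4.94 in BM, C, B and BC on day 1. On day 3 it was 28.7 (BM), 32.0 (C), 171 (B) and 213 (BC). The libraries without bFGF had thus also left their day 1 level by day 3, but those with bFGF were several times higher.

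On day 5 Car9 was at 8.91 FPKM in BM, 6.88 (C), 410 (B) and 444 (BC). On day 7 it was at 2.76 (BM), 3.29 (C), 433 (B) and 542 (BC). It had the highest FPKM of the 10 genes in B and BC on days 5 and 7, after the third lowest on day 1. The bFGF effect was 2.75 ± 0.14 (log2, SE) on day 3 and 6.19 ± 0.17 on day 5 (edgeR adjusted p = 6.07e-06 and 1.62e-07), a 6.74-fold and a 73.1-fold difference, and on day 5 it ranked 10th among 11254 genes. Of the related carbonic anhydrases, Car2, Car12 and Car14 were at an FPKM of at most 0.31 in every library.

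Adm encodes adrenomedullin, a secreted vasodilator peptide. On day 1, 3 of the 10 genes (Adm, Vegfa and Pdk1) had both bFGF libraries above both others, which also held for 2707 of 11272 genes, so nothing is read from that count. The day 1 effect on Adm was 0.86 ± 0.26 (adjusted p = 0.0693), and it passed by DESeq2 (0.83, adjusted p = 0.0124). Adm was at 43.7 FPKM on day 0, and on day 1 at 30.8 (BM), 16.8 (C), 45.8 (B) and 34.5 (BC). Its day 3 values were 22.1 (BM), 27.1 (C), 146 (B) and 78.5 (BC). On day 5 it was at 6.96 (BM), 5.45 (C), 109 (B) and 105 (BC).

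Without bFGF, Adm fell by 1.90 ± 0.29 on the log2 scale from day 1 to day 5 (adjusted p = 0.000342), and with bFGF it rose by 1.80 ± 0.25 (adjusted p = 0.000138). Its bFGF effect was 2.21 ± 0.26 on day 3 and 4.57 ± 0.30 on day 5, the latter a 23.7-fold difference (adjusted p = 1.21e-06). On day 7 it was at 5.40 (BM) and 4.67 (C) and at 176 (B) and 134 (BC). Its receptor was hardly seen: Calcrl was at an FPKM of at most 0.41 in every library. Ramp2, which makes that receptor selective for adrenomedullin, was at 3.09 and 3.35 FPKM in BM and C on day 5 and at 0.33 in both B and BC.

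Vegfa encodes the main growth factor of blood vessels. It was at 19.7 FPKM on day 0, and on day 1 at 33.7 (BM), 34.8 (C), 38.9 (B) and 42.3 (BC). On day 3 it was at 33.2 (BM), 50.4 (C), 107 (B) and 104 (BC), and on day 5 at 26.0, 31.4, 124 and 105 in the same order. On day 7 it was at 94.6 (B) and 107 (BC), with BM at 28.2 and C at 33.3. The bFGF effect was 1.46 ± 0.18 on day 3 and 2.48 ± 0.18 on day 5, a 5.57-fold difference (adjusted p = 2.21e-06).

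The other VEGF genes went different ways on day 5. Vegfb was higher with bFGF (log2 fold change 0.67 ± 0.08, adjusted p = 4.95e-05), and Vegfc (-1.15 ± 0.25, adjusted p = 0.0021) and Vegfd (-0.97 ± 0.15, adjusted p = 0.000213) were lower. All 3 kept these directions with library size only. Of the VEGF receptors, Kdr was at an FPKM of at most 1.27 and Flt1 at most 3.54 in any library.

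Bnip3 encodes a protein of the outer mitochondrial membrane that drives mitophagy. It was at 19.8 FPKM on day 0 and at 37.6 to 41.4 in the 4 libraries of day 1. On day 3 it was at 78.6 (BM), 122 (C), 187 (B) and 197 (BC). On day 5 it was lower again in all 4 media, at 42.0 (BM), 48.2 (C), 83.1 (B) and 87.9 (BC).

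On day 7 Bnip3 stood at 40.1 (BM) and 44.5 (C), but at 209 (B) and 169 (BC). The bFGF effect was 1.05 ± 0.16 on day 3 and 1.37 ± 0.16 on day 5 (adjusted p = 0.000584 and 3.64e-05). Its relative Bnip3l, another mitophagy receptor, was not past the threshold on day 3 and was higher with bFGF on day 5 (0.85 ± 0.15, adjusted p = 0.000475).

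Ankrd37 encodes a small ankyrin repeat protein and is used as a marker of HIF activity. It was at 1.10 FPKM on day 0 and at 0.41 to 1.19 on day 1. By day 3 it was at 5.90 (BM), 8.25 (C), 26.0 (B) and 16.7 (BC), and on day 5 at 2.86, 1.62, 10.6 and 8.65 in the same order. On day 7 it was at 1.41 (BM) and 1.16 (C), and at 33.3 (B) and 18.2 (BC). The bFGF effect was 1.63 ± 0.28 on day 3 and 2.50 ± 0.32 on day 5 (adjusted p = 0.00117 and 6.81e-05).

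Pdk1 encodes pyruvate dehydrogenase kinase 1, which inhibits pyruvate dehydrogenase and so limits the entry of pyruvate into the citric acid cycle. It was at 9.73 FPKM on day 0 and at 11.2 to 13.5 on day 1. By day 3 it was at 8.33 (BM), 12.9 (C), 17.9 (B) and 20.9 (BC), and on day 5 at 5.58, 5.57, 4.98 and 2.71 in the same order, where the libraries with bFGF were the lower ones. On day 7 it was at 4.65 (BM), 5.45 (C), 13.0 (B) and 6.32 (BC).

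The bFGF effect on Pdk1 was 0.83 ± 0.24 on day 3 (adjusted p = 0.0168), and this call was lost without the BM library of day 3 (0.50, adjusted p = 0.163) or the BC library of day 3 (0.75, adjusted p = 0.0656). On day 5 it was -0.20 ± 0.26 (adjusted p = 0.499), and without the B library of day 5 it was -0.79 and past the threshold, as it was with library size only (-0.65, adjusted p = 0.0408). Pdk2, another kinase of the family, was at 2.03 FPKM on day 0 and on day 3 at 48.2 (BM), 36.4 (C), 22.4 (B) and 25.5 (BC). Pdk4 was at an FPKM of at most 0.04.

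The hydroxylase genes Egln1 and Egln3 encode PHD2 and PHD3, which mark HIF alpha for degradation and are themselves HIF targets. Egln3 was at 23.6 FPKM on day 0 and at 16.7 to 20.4 on day 1. On day 3 it was at 21.9 (BM), 32.4 (C), 53.1 (B) and 57.3 (BC), and on day 5 at 16.1, 19.1, 13.1 and 13.5 in the same order. The rise with bFGF was thus seen on day 3 (1.13 ± 0.13, adjusted p = 0.000112), and on day 5 the effect was 0.05 ± 0.13 (adjusted p = 0.748), with the sign reversed and the test passed when counts were scaled by library size only (-0.40, adjusted p = 0.0145).

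Egln1 had small differences. It was at 26.7 FPKM on day 0 and at 17.8 to 19.8 on day 1, and on day 3 at 22.2 (BM), 27.0 (C), 34.5 (B) and 30.2 (BC). Its bFGF effect of 0.48 ± 0.14 on day 3 (adjusted p = 0.0198) was lost without the BM (0.23) or the B (0.44) library of day 3. Its day 5 levels were 19.8 (BM), 17.2 (C), 21.7 (B) and 16.3 (BC), so the groups overlapped in FPKM. The day 5 effect of 0.48 ± 0.14 (adjusted p = 0.0133) became 0.03 with library size only (adjusted p = 0.843) and was also lost without the C (0.43) or the B (0.26) library of day 5. It was lost with upper quartile scaling (0.29) and with limma on log2(FPKM + 1) (0.02) as well. On day 7 Egln1 was at 41.1 (B) and 24.4 (BC) against 19.0 (BM) and 18.8 (C), and Egln3 at 26.8 and 18.1 against 10.6 and 15.0.

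Ddit4 encodes REDD1, an inhibitor of the growth kinase mTORC1 that is induced by hypoxia and by other stresses. Its pattern differed from the rest. It was at 6.32 FPKM on day 0 and at 44.0 or more in all 16 later libraries, with the day 1 values at 66.6 (BM), 65.5 (C), 44.0 (B) and 47.8 (BC). It was the one gene of the 10 that was lower with bFGF on day 1 (-0.45 ± 0.11, adjusted p = 0.0404), a call that was lost when any of 8 of the 12 libraries was left out (-0.58 to -0.31), namely the 4 of day 1 and the BM and C libraries of days 3 and 5.

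On day 3 Ddit4 was at 79.9 (BM), 103 (C), 61.9 (B) and 79.1 (BC), and the bFGF effect of -0.28 ± 0.11 did not pass (adjusted p = 0.06), though it did with library size only (-0.37, adjusted p = 0.0163) and without the BC library of day 3 (-0.37, adjusted p = 0.0469). On day 5 it was at 55.9, 67.8, 60.8 and 64.0 in BM, C, B and BC, so the groups overlapped in FPKM. The fitted effect was then 0.47 ± 0.11 (adjusted p = 0.00357) with TMM scaling and 0.02 (adjusted p = 0.855) with library size only.

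The bFGF effect was larger on day 5 than on day 1 for 7 of the 10 genes in the test of that difference, beside 28.7% of all genes. These were Car9, Adm, Vegfa, Ankrd37, Bnip3, Ddit4 and Ndufa4l2. Ndufa4l2 passed the filter only through its libraries with bFGF and has 3 and 7 reads on day 1, so without it the count is 6 of the other 9. That count is partly built in as well, since the genes were chosen for a higher day 7 level with bFGF. For those 6 the differences ran from 0.91 ± 0.16 on the log2 scale for Ddit4 (adjusted p = 0.000845) to 5.99 ± 0.23 for Car9 (adjusted p = 2.92e-06). Egln1 (0.40, adjusted p = 0.116), Egln3 (-0.02, adjusted p = 0.917) and Pdk1 (-0.50, adjusted p = 0.241) did not pass. The Ankrd37 difference of 2.02 was lost without the BM library of day 1 (1.37) or the BC library of day 1 (1.83). Without the B library of day 5, the Pdk1 difference was -1.05 and passed, and the Egln1 difference passed without the BM or the C library of day 3 or the BC library of day 5 (0.40 to 0.61).

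The time course was then read within each medium. From day 1 to day 5 without bFGF, 4 of the 10 genes passed, beside 64.8% of all genes in either direction: Ankrd37 rose by 1.67 ± 0.44 and Car9 by 0.93 ± 0.16, while Adm and Pdk1 (-0.82 ± 0.25) fell. The Ankrd37 call was lost without the C library of day 1 (1.29) or the BM library of day 5 (1.51), and the Pdk1 call without any of the 4 libraries behind it (-0.85 to -0.80). With bFGF, 8 of the 10 rose from day 1 to day 5, beside 34.6% of all genes, from 0.39 ± 0.14 for Egln1 to 6.91 ± 0.18 for Car9 and 7.59 ± 0.51 for Ndufa4l2. Ndufa4l2 passed the filter only through its libraries with bFGF, so its rise is given as a value and not as support for the count. With library size only the Egln1 rise was lost (0.02) and Egln3 fell (-0.47, adjusted p = 0.00614). The Egln1 rise was also lost without the B (0.35) or BC (0.42) library of day 1 or the B library of day 5 (0.17). Pdk1 fell by 1.33 ± 0.25 with bFGF as well (adjusted p = 0.00104).

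The steps between neighbouring days were tested after the values had been seen. Without bFGF, 7 of the 10 genes rose from day 1 to day 3, beside 35.2% of all genes, and 8 of the 10 fell from day 3 to day 5, beside 4.57% of all genes. Both counts rest on the same BM and C libraries of day 3. Of the 7 rises, that of Ndufa4l2 (1.72 ± 0.67, adjusted p = 0.0449) was lost without the BM, B or BC library of day 1 or the BM, C or B library of day 3 (1.19 to 1.94), that of Egln1 (0.42) without the BM or C library of day 1 or the C library of day 3 (0.15 to 0.44), and that of Ddit4 (0.47) without the C library of day 1 (0.34). Vegfa (0.28) passed without the BM library of day 3 (0.56). The largest rises were those of Ankrd37 (3.33 ± 0.39) and Car9 (2.87 ± 0.16), and the largest falls those of Ndufa4l2 (-3.34 ± 0.87, from 22 to 2 reads), Adm (-2.04 ± 0.29) and Car9 (-1.94 ± 0.15). The 8 genes with a fall were Ndufa4l2, Adm, Car9, Ankrd37, Bnip3, Pdk1, Egln3 and Ddit4, and Vegfa (-0.55, adjusted p = 0.0857) and Egln1 (-0.43, adjusted p = 0.0961) did not pass, though Vegfa did by DESeq2 (-0.54). The falls of Ndufa4l2 (adjusted p = 0.0454) and Pdk1 (adjusted p = 0.0495) lay close to the threshold and were not called by limma on log2(FPKM + 1).

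The count of 8 falls was 5 without the BM library of day 3, 6 without any one of the libraries of day 1, and 1 without the C library of day 3, the BM library of day 5 or the C library of day 5, when the count over all genes also went down, from 986 to between 20 and 123 in either direction. Car9 was the gene still called. No direction changed in these fits. In FPKM, all 10 genes were lower on day 5 than on day 3 in both BM and C, beside 35.5% of all genes. In the lists of other genes, 8 of 36 other HIF targets and 5 of 21 glycolysis genes fell from day 3 to day 5 without bFGF (edgeR), beside the same 4.57%.

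With bFGF, all 10 genes rose from day 1 to day 3, beside 32.1% of all genes, from 0.63 ± 0.24 for Pdk1 to 5.42 ± 0.17 for Car9 and 6.10 ± 0.55 for Ndufa4l2. The rise of Ndufa4l2 is again no support for the count, since the gene passed the filter only through its libraries with bFGF. The Pdk1 call was lost when any of 8 of the 12 libraries was left out (0.56 to 0.71), namely the 4 of day 1, the B and BC libraries of day 3 and the BM and C libraries of day 5. From day 3 to day 5 the 10 genes parted, and 8 passed, beside 60.3% of all genes in either direction. Pdk1 (-1.95 ± 0.26), Egln3 (-1.71 ± 0.13), Bnip3 (-0.83 ± 0.16), Ankrd37 (-0.79 ± 0.27) and Egln1 (-0.44 ± 0.14) fell, and Car9 (1.497 ± 0.14), Ndufa4l2 (1.49 ± 0.28) and Vegfa (0.47 ± 0.17) rose. Adm (0.32, adjusted p = 0.282) and Ddit4 (0.17, adjusted p = 0.2) did not pass. The Vegfa rise was 0.13 and not past the threshold with library size only and was lost when any library of day 1, the B or BC library of day 3 or the B library of day 5 was left out (0.18 to 0.55). The fall of Egln1 was lost without the B library of day 3 (-0.42) or the BC library of day 5 (-0.28), and that of Ankrd37 without the B library of day 3 (-0.61) or either library with bFGF of day 5 (-0.78 and -0.85).

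**Figure D3:**
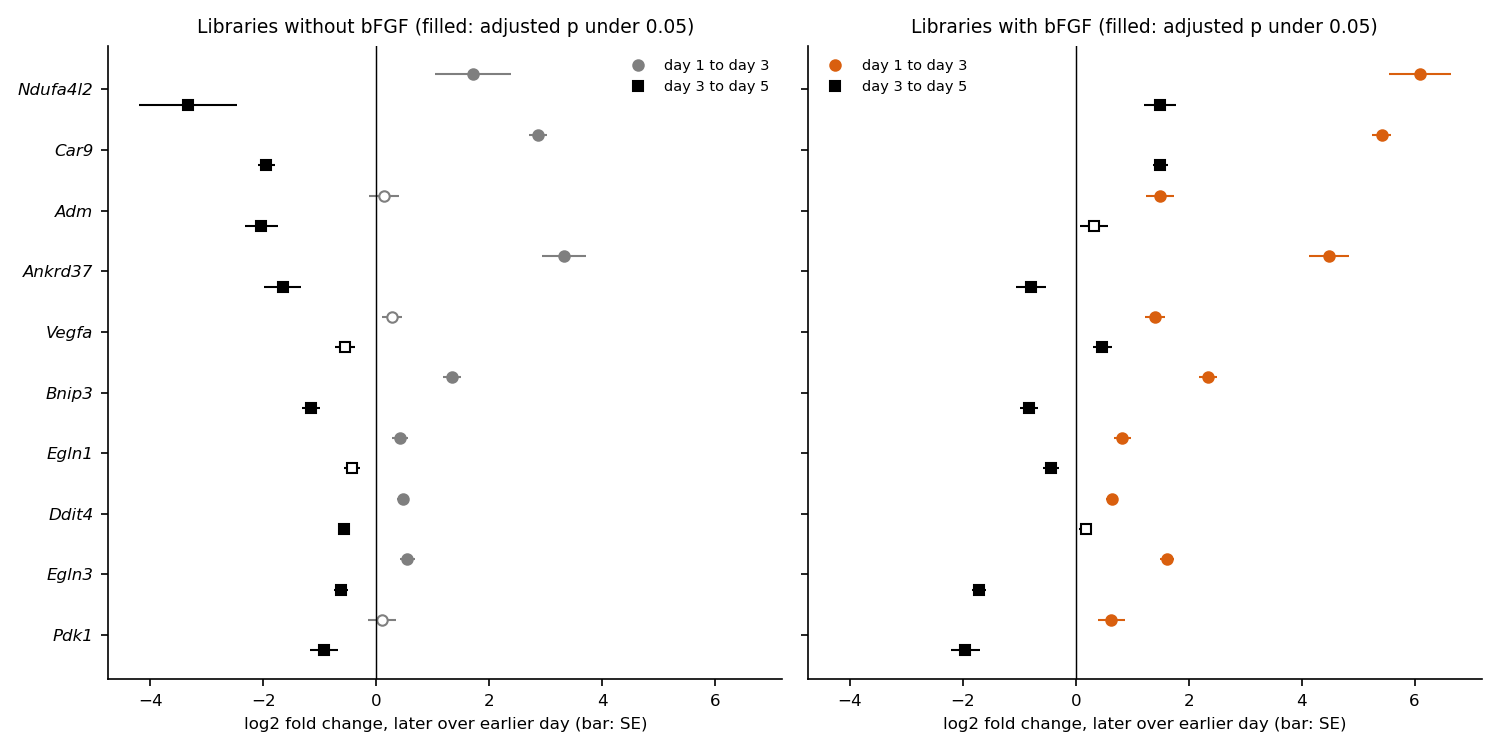
Fitted log2 change of each gene from day 1 to day 3 (circles) and from day 3 to day 5 (squares), in libraries without bFGF (left) and with bFGF (right), with bars for the standard error and filled symbols for an adjusted p under 0.05. Without bFGF every square lies left of 0, whereas with bFGF Ndufa4l2, Car9 and Vegfa have filled squares right of 0 and Pdk1 and Egln3 lie furthest left.

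In FPKM, 6 of the 10 genes were lower on day 5 than on day 3 in both B and BC, near the 63.5% of all genes: Bnip3, Ankrd37, Egln1, Egln3, Pdk1 and Ddit4. The B and BC libraries of day 5 had the lowest TMM factors of the 12, 0.785 and 0.796 beside 0.991 to 1.084 in the others, and with TMM scaling the fitted change of Ddit4 was 0.17. All 6 were above their day 5 FPKM again on day 7 in B and BC, the values by which the genes were chosen, so nothing is read from the return.

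On day 7, each of the 10 genes was higher in both libraries with bFGF than in both without, which is how they were chosen, so nothing is read from it. The separation was narrow for Ddit4, at 71.2 (B) and 64.4 (BC), with BM at 45.3 and C at 59.4. The FPKM ratio of B to BM was 157 for Car9 and that of BC to C 165. Pdk1 was 2.79-fold higher in B than in BM and 1.16-fold higher in BC than in C, and Egln1 2.16-fold and 1.30-fold.

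CHIR99021 was tested over the 16 libraries of days 1 to 7 with bFGF and day accounted for. The fit includes the day 7 libraries, on whose difference with bFGF the genes were chosen, though CHIR99021 took no part in that choice. Of the 10 genes, 2 passed, beside 19.5% of all 11272 genes in either direction. Ndufa4l2 was higher with CHIR99021 (log2 fold change 0.66 ± 0.19, adjusted p = 0.0368), in 6 of 8 pairs of libraries with 1 pair at 0 in both. Some of these pairs rest on very few reads: C against BM had 6 and 1 on day 1 and 2 and 0 on day 5. The 1 pair that was lower, BC against B on day 1, had 1 and 2. Adm was lower (-0.37 ± 0.12, adjusted p = 0.0485), in 7 of 8 pairs. Neither call was firm: the Ndufa4l2 call was lost when any of 8 of the 16 libraries was left out (0.57 to 0.62), all 4 of day 3, BM and C of day 1 and B and BC of day 7. The Adm call was lost when any of 12 was (-0.39 to -0.27), all but the BM and C libraries of day 3 and the B and BC libraries of day 5.

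Ankrd37 was lower with CHIR99021 in 7 of 8 pairs as well (-0.45 ± 0.15, adjusted p = 0.056), and it passed in 5 of 7 other settings and without the BM or the C library of day 3 (-0.63). Egln1 was also lower in 7 of 8 pairs (-0.18 ± 0.09, adjusted p = 0.155). Car9 and Egln3 were higher in 7 of 8 pairs, by 0.18 ± 0.07 (adjusted p = 0.105) and 0.17 ± 0.10 (adjusted p = 0.25). Car9 passed without the BM or the C library of day 5 (0.25), Egln3 without the B or the BC library of day 7 (0.26), and Ddit4 (0.18, adjusted p = 0.0562) without the BM or C library of day 1 or the B or BC library of day 7 (0.21 to 0.22).

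Among the HIF genes themselves, Hif1a had its 2 lowest levels of the 17 libraries in B and BC on day 7. It was at 62.3 FPKM on day 0, and on day 5 at 126 (BM), 130 (C), 75.7 (B) and 77.7 (BC). It was lower with bFGF on day 5 (-0.29 ± 0.10, adjusted p = 0.027), and on day 7 it was at 148 (BM) and 162 (C) and at 49.8 (B) and 52.2 (BC). Arnt was higher with bFGF on day 5 (0.81 ± 0.07, adjusted p = 5.95e-06) and Arnt2 lower (-0.32 ± 0.11, adjusted p = 0.0237), and with library size only these directions were kept. Epas1 was at an FPKM of at most 0.17 and Hif3a at most 0.08 in every library, so Hif1a was the alpha subunit gene with a measurable level.

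Of 13 regulators of HIF, 5 were higher and 4 lower with bFGF on day 5, and 1 and 8 with library size only. Over all genes 37.1% were higher and 38.3% lower, and with library size only 21.3% and 56.6%, so these counts are near the background. The largest differences were those of Ep300 (-1.36 ± 0.13, adjusted p = 1.19e-05), a coactivator, Cited2 (-1.11 ± 0.18, adjusted p = 0.00033), which competes with HIF for it, and Egln2 (-1.01 ± 0.15, adjusted p = 0.00017), the third prolyl hydroxylase, and on the higher side of Siah2 (0.75 ± 0.09, adjusted p = 5.33e-05), a ubiquitin ligase for prolyl hydroxylases. Egln2 was at 14.3 and 16.99 FPKM in B and BC on day 5 against 41.9 (BM) and 46.0 (C). Vhl had a fitted effect of 0.27 ± 0.10 (adjusted p = 0.0343) with TMM and -0.17 with library size only.

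**Figure D4:**
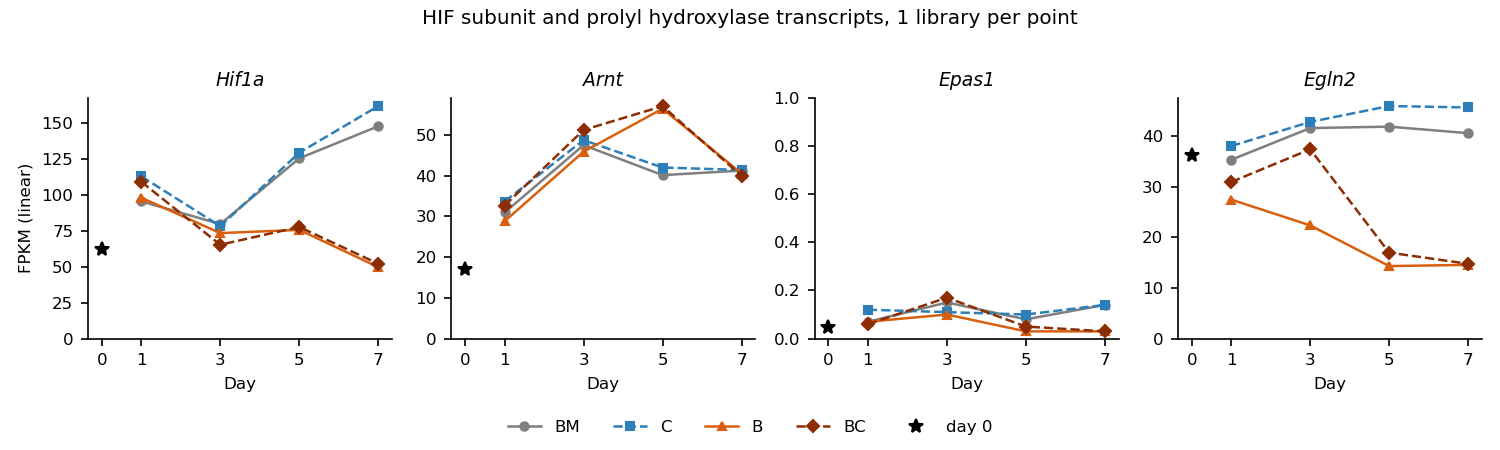
FPKM (linear, from 0) of Hif1a, Arnt, Epas1 and the prolyl hydroxylase gene Egln2 against the day, 1 point per library, with a star for day 0. Hif1a is at 148 and 162 in BM and C on day 7 and at 49.8 and 52.2 in B and BC, Epas1 stays at or below 0.17, and Egln2 is lowest in B and BC on days 5 and 7.

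A further list of 45 HIF targets was read beside the 10, of which 36 passed the filter on low values. With bFGF 18 were higher and 4 lower on day 3, beside 25.4% and 24.8% of all genes. On day 5, 21 were higher and 8 lower, or 18 and 10 with library size only, beside the shares of all genes given above for day 5. Their median was 0.43 on day 3 and 0.75 on day 5. The largest rises on day 5 were those of Ero1l, an oxidase of the endoplasmic reticulum (4.78 ± 0.24, adjusted p = 3.35e-07), Fam162a (3.16 ± 0.22, adjusted p = 1.51e-06), the collagen prolyl hydroxylase P4ha1 (2.83 ± 0.13, adjusted p = 2.99e-07), the adenylate kinase Ak4 (2.31 ± 0.21, adjusted p = 8e-06) and the lipoprotein receptor Vldlr (2.12 ± 0.11, adjusted p = 4.66e-07).

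The largest fall was that of Angptl4, an inhibitor of lipoprotein lipase, by 5.47 ± 0.47 (adjusted p = 5.47e-06), from 58.9 and 72.3 FPKM in BM and C on day 5 to 0.71 and 1.49 in B and BC. Angptl4 had gone from 2.51 and 1.06 FPKM in BM and C on day 1 to 101 and 175 on day 3, a step up that Car9 and Ankrd37 also took in these media. Pdgfb (-1.82 ± 0.37, adjusted p = 0.00144), Wsb1 (-1.04 ± 0.11, adjusted p = 1.52e-05) and Narf (-0.78 ± 0.14, adjusted p = 0.000786) were also lower. Known HIF targets therefore lay at both ends of the bFGF effect on day 5.

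Of 21 glycolysis genes, 17 were higher and 2 lower with bFGF on day 5, or 12 and 4 with library size only, beside 37.1% and 38.3% of all genes, or 21.3% and 56.6%. Gpi1 (3.65 ± 0.12) and Pgk1 (3.05 ± 0.13) led, and Hk2 was lower (-1.57 ± 0.20). Of 9 genes of the ATF4 stress response, to which Ddit4 is also known to respond, 9 were higher on day 5. With library size only 6 were higher, beside the same shares of all genes. Atf4 itself (2.34 ± 0.10) and Ddit3 (3.83 ± 0.24) were both higher, beside 0.47 for Ddit4.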

How the data were processed

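RNA-seq was done by the authors on the BGISEQ-500 platform. The paper names Bowtie 2 and eXpress, and the submitters' processing notes name Bowtie2, RSEM and mm10, with no versions given in the sources used here. Each deposited table gives an expected count, an estimate that need not be whole, and the FPKM, with genes listed from an FPKM of 0.01. Unlisted genes were set to 0.

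Expected counts were rounded. Genes whose mean FPKM over the libraries fitted reached 1 were tested by edgeR 4.0.16 (R 4.3.3) with TMM scaling and glmQLFit and glmQLFTest, and p-values had a Benjamini-Hochberg adjustment with 0.05 as the threshold. The fit of days 1, 3 and 5 (12 libraries, 5 residual degrees of freedom) had the day, bFGF within each day and CHIR99021 as terms. The CHIR99021 fit (16 libraries, 7 residual degrees of freedom) added day 7. Fold changes are log2, and the biological coefficient of variation was 10.2% and 10%. Each standard error is the absolute log2 fold change divided by the square root of the quasi-likelihood F. It is approximate and can be too small where reads are few, as for Ndufa4l2. The day 0 library entered no test. The paper describes it both as cells in BM and as cells before treatment.

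The members, gene lists and tests were chosen with earlier results of these data known, and the steps between neighbouring days after the values had been seen. Named genes were all 10 members, their relatives, the 5 genes most like Ndufa4l2, and from each list those with the largest day 5 changes past the threshold. Alternatives were DESeq2 1.42.0, limma 3.58.1 on log2(FPKM + 1) and log2(FPKM + 0.1), scaling by library size only or by the upper quartile, no filter, a minimum mean FPKM of 5, and leaving out each library. The fits were also run on simulated counts with known changes, balanced in direction. The outcome is not reported here, and such counts cannot speak to the scaling or to the lack of repeated cultures. Tables and plots used Python 3.11.15, pandas 2.3.3, numpy 2.4.6, scipy 1.17.1 and matplotlib 3.10.9. Some genes of the lists are not reported by name here.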

Additional observations from a re-analysis of the deposited data

Results flagged for a closer look

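For 7 of the 10 genes, or 6 of 9 without Ndufa4l2, the bFGF effect on day 5 differed from that on day 1 in the test of the difference itself (edgeR, adjusted over all genes). The difference, day 5 minus day 1 on the log2 scale, was 5.99 for Car9 (adjusted p = 2.92e-06), 3.71 for Adm (adjusted p = 5.06e-05) and 2.14 for Vegfa (adjusted p = 9.13e-05). It was 2.02 for Ankrd37 (adjusted p = 0.018) and 1.32 for Bnip3 (adjusted p = 0.000804). The Ankrd37 call was lost without the BM (1.37) or the BC (1.83) library of day 1. For Ddit4 it was 0.91 (adjusted p = 0.000845), with an effect of -0.45 on day 1 and 0.47 on day 5. That day 5 effect was 0.02 with library size only, and the day 1 call was lost when any of 8 of the 12 libraries was left out. For Ndufa4l2 the fitted difference was 9.21, but this gene passed the filter only through its libraries with bFGF and its day 1 effect rests on 3 and 7 reads, so it is given as a value and not as support. Over all genes, 28.7% had a larger effect on day 5. The 10 genes were chosen for a higher day 7 level with bFGF, so a larger late effect is partly built in.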

How the results depend on the processing

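Each condition had 1 library, so there were no replicates to pair. Libraries of the same day and bFGF state were matched through the terms of the CHIR99021 fit and in the counts of pairs. Of the 10 genes in the 11 comparisons, DESeq2 kept the call in 106 of 110 values, and scaling by library size only in 102 of 110. A change of sign was counted as a reversal only where at least 1 of the 2 fits passed the threshold. The 1 reversal was Egln3 on day 5, at -0.374 and -0.396 with limma on log2(FPKM + 1) and log2(FPKM + 0.1) and -0.395 with library size only. The cause was not tested beyond the scaling itself. With a library left out, 1232 of 1360 values kept their call, 107 lost it, 21 gained it and 0 reversed by that rule. Values past the threshold in neither fit could change sign. Adm from day 1 to day 3 without bFGF, for example, ran from -0.317 to 0.539. Counts over all genes with a library left out ran from 38 to 1772 for bFGF on day 1, from 3716 to 5928 for bFGF on day 3 and from 20 to 1567 for day 3 to day 5 without bFGF. Scaling by library size only also moved the split of calls for day 1 to day 5 with bFGF (3889 higher and 4420 lower against 2463 and 6071), for the difference between days (3235 and 3680 against 1893 and 5332) and for day 3 to day 5 with bFGF (3327 and 3463 against 1343 and 5749).

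The limits are those of 1 library per condition: spread was taken from departures from additivity, culture-to-culture variation was not measured, and Ndufa4l2 has at most 22 reads in any pair of libraries without bFGF. Transcripts say nothing of HIF protein, and oxygen was not recorded in the sources used here.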
